A study of Mus musculus with 8 samples.

Results

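Clptm1 and 7 companion genes of inhibitory synapse assembly and neuronal chloride transport were followed in striatal RNA of adult female mice. The members were all array probes whose gene name in the scanner files was Clptm1, Gphn, Nlgn2, Gabarap, Gabarapl1, Gabarapl2, Slc12a2 or Slc12a5. This gave 8 of 30175 gene names and 11 of the 39429 probes, and all 11 were among the 25324 probes tested. The Gabarap probe A_55_P2000718 was well above background in 4 of 8 samples and the Slc12a5 probe A_55_P2087544 in 7; the other 9 were in all 8. Clptm1 was selected on its measured difference between wildtype and heterozygous samples on these same arrays. That difference is therefore given as a description, without a test, and it supports nothing by itself. The companions were named for their roles, with earlier results of these data known.

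Each genotype was represented by 4 samples. Wildtype mice carried 2 intact copies of Brd2, a bromodomain gene. Heterozygous mice (Brd2+/-) carried 1 intact copy and 1 copy with a gene-trap insertion, on a C57Bl/6J background reached by repeated backcrossing. The sources used here do not say if a sample was 1 animal or a pool, so errors and p-values describe the spread between these samples. The tissue field names both prefrontal cortex and striatum, and the sample descriptions name the striatum. On 4 two-colour Agilent arrays of a single slide, 2 samples of the same genotype shared each array. Replicates 1 and 3 carried the dye Cy3, replicates 2 and 4 carried Cy5, replicates 1 and 2 shared an array, and so did replicates 3 and 4.

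The share of spots well above background, the scanner's own call, was 37.7% to 47.6% in Cy3 and 65.9% to 75.5% in Cy5, lowest in the library labelled heterozygous replicate 3. Brd2 averaged 55.4% of the wildtype level in heterozygous samples (exact two-sided permutation p = 0.0286, the smallest possible with 4 against 4). This test treats the samples as independent, although samples of a genotype shared arrays, so it cannot separate genotype from array. The p was 0.0571 without wildtype replicate 1, 2 or 4 or heterozygous replicate 1 in the same exact permutation test, with differences of -0.81, -0.75, -0.87 and -0.77. The library labelled heterozygous replicate 3 measured 12.44 on the log2 scale, next to the lowest wildtype value of 12.52, while the other heterozygous samples measured 11.79 to 11.96. Its label is in doubt from this Brd2 value alone, and a wrong label was not tested. Values without that library stand beside the results that it moved most. Of 15 markers of striatal projection neurons, 14 were well above background in all 8 samples. In the limma fit 1 of 25324 probes passed an adjusted p of 0.05 (0.00395%), a probe of the BTB domain gene Btbd9, and none of the 10 companion probes did. No companion probe had an unadjusted p under 0.05 either, against 4.06% of tested probes higher and 4.83% lower in heterozygous samples.

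Fast inhibition in the brain runs through GABA-A receptors, which are chloride channels. Clptm1 is a membrane protein of the endoplasmic reticulum that holds back GABA-A receptor subunits and so limits how many reach the surface. At the synapse, gephyrin (Gphn) forms the scaffold under the receptors, and neuroligin 2 (Nlgn2) is the adhesion molecule of inhibitory contacts that recruits it. Gabarap, Gabarapl1 and Gabarapl2 are small ubiquitin-like proteins of the ATG8 family that take part in vesicle traffic and autophagy. The cotransporter NKCC1 (Slc12a2) loads cells with chloride and KCC2 (Slc12a5), found in neurons, extrudes it, and their balance sets whether GABA inhibits. In the striatum most neurons are GABAergic projection neurons.

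The probes decide which part of each transcript was read, so the start of 8 of them and the whole of 2 are shown. Positions are those of the array files in build mm9, and each probe is 60 bases long. For 8 probes the first 30 bases are printed, and 2 probes are printed whole; no exon annotation of that build was used. No sequence is shown for Slc12a2.
Clptm1 A_51_P332799, chr7:20218799-20218858, minus strand, from transcript base 2201: gaggcaccgtccatcgtcttgtctatccgt
Gphn A_55_P2025403, chr12:79785608-79785667, plus strand, from base 3151: ctgatcttgtacagatattagtgttaccag
Nlgn2 A_55_P1960989, chr11:69636641-69636700, minus strand, from base 4926: cctttgcggctctgtacacatttttaaacc
Gabarap A_51_P295312, chr11:69806095-69806154, plus strand, from base 523, whole: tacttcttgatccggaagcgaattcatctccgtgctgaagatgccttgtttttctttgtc
Gabarap A_55_P2010223, chr11:69808343-69808402, plus strand, from base 1013: aatcccttcctttcactatcttctttttgg
Gabarap A_55_P2000718, chr11:69804812-69804871, plus strand, from base 167 of another transcript model: taatttccgagaactgcagaactaaatctc
Gabarapl1 A_52_P633410, chr6:129492254-129492313, plus strand, from base 1677: caatctgtacgtctgttttgtcagcttcag
Gabarapl2 A_55_P2141709, chr8:114476386-114476445, plus strand, from base 550: ctccacacagacctactagtgcatttgtaa
Slc12a5 A_52_P557129, chr2:164825109-164825168, plus strand, from base 5900: ggtcagttctctcctttactgttgaatgct
Slc12a5 A_55_P2087544, chr2:164804887-164804946, plus strand, from base 1135, whole: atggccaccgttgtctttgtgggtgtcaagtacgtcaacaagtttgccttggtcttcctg
The longest run of bases shared by probes of different members was 9, between Gphn and Slc12a2, over 51 pairs of probes. The probes of the 3 related ATG8 genes thus shared no longer run with each other. They were not compared with the transcripts of the related genes, so whether a probe also read a related gene was not tested.

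Clptm1 has a single probe, with a single spot on each array. Levels are normalized log2 intensities and differences are heterozygous minus wildtype on that scale. Clptm1 measured 12.68 and 12.91 in wildtype replicates 1 and 2. It measured 13.76, 14.01, 13.59 and 13.97 in heterozygous replicates 1 to 4. The scanner had marked the spot of wildtype replicates 3 and 4 as an outlier for uneven pixels, in both channels of the array they share, so these samples had no value. The wildtype mean therefore rests on 2 samples of 1 array. With the dye effect removed the wildtype mean was 12.79 ± 0.04 (SD, n = 2). The heterozygous mean was 13.84 ± 0.07 (SD, n = 4), which is higher by 1.04 (SE 0.13) or 2.06-fold. All 4 heterozygous values lay above both wildtype values, a separation that 3.57% of the tested probes showed in this direction. Of the probes 94.1% had no value left out, and separation from 2 wildtype values is easier than from 4. That share is therefore not a like background for Clptm1. A difference of at least this size, in either direction, was found for 151 probes (0.596%). These values chose the gene, and nothing is read from these shares.

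The marked spot was bright. In wildtype replicates 3 and 4 its mean intensity was 11947 in Cy3 and 16822 in Cy5, which is 351 and 443 times the local background. The unmarked wildtype spot read 4114 in Cy3 and 8405 in Cy5. In heterozygous samples the Cy3 spots read 9763 and 4673 and the Cy5 spots 39449 and 28339. The pixel SD was 51.4% and 42.7% of the mean in the marked spot and 9.16% to 21.7% in the other 6 readings. The marked spot was thus less even, and it was brighter than the other wildtype spot in both channels.

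With the marked spots kept, Clptm1 measured 13.59 in wildtype replicate 3 and 13.58 in replicate 4. Replicate 3 was then level with the library labelled heterozygous replicate 3 in the same dye, also 13.59. After each dye's mean was taken off, the highest wildtype value was 0.19 and the lowest heterozygous value 0.18, so the groups no longer separated. The wildtype mean was then 13.19 ± 0.47 (SD, n = 4) and the heterozygous mean 13.84 ± 0.09 (SD, n = 4), and they differed by 0.65 (SE 0.225). The wildtype samples of 1 array lay 0.79 above those of the other, while the heterozygous arrays differed by 0.11. Without the wildtype array of replicates 1 and 2 the difference was 0.25 (SE 0.126), and without the array of replicates 3 and 4 it was 1.04. The size of the Clptm1 difference thus turned on which wildtype array was used. Each array held a single genotype, so an effect of 1 array or spot and an effect of genotype cannot be told apart here.

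**Figure D1:**
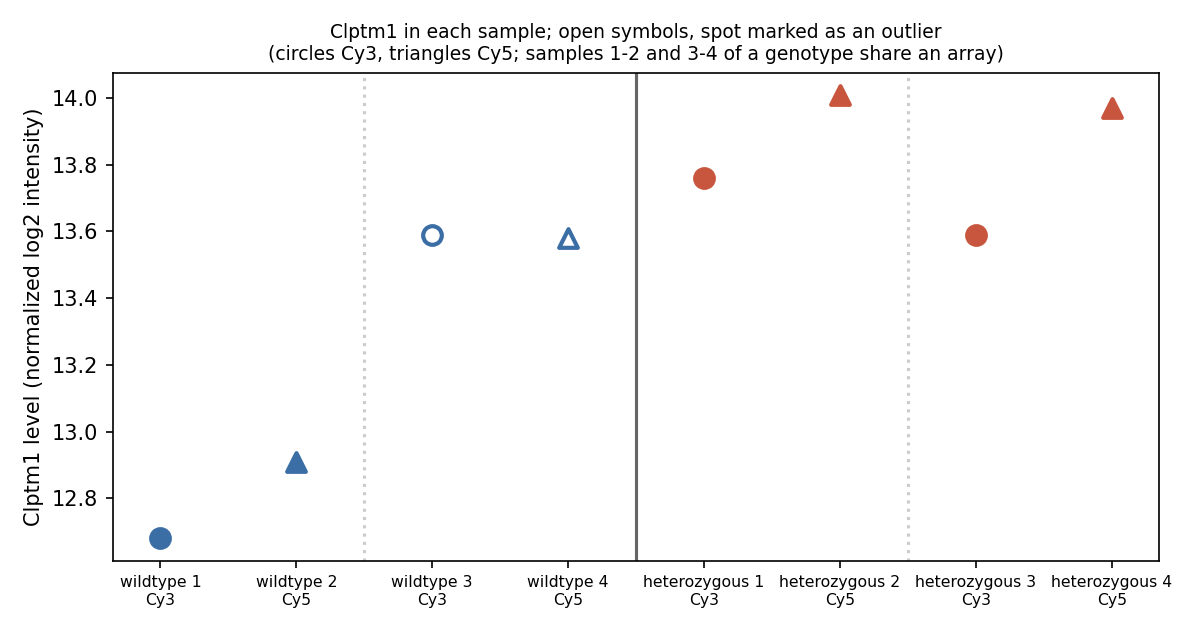
Normalized log2 intensity of Clptm1 (vertical axis) in each of the 8 samples (horizontal axis), wildtype in blue and heterozygous in red, circles for Cy3 and triangles for Cy5, with open symbols for the spots marked as outliers. The filled wildtype points lie at 12.68 and 12.91, the open ones at 13.59 and 13.58, and the heterozygous points between 13.59 and 14.01.

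The authors' deposited value table has values for the marked spots. As log2 of its ratios to the column median, Clptm1 in Cy3 stood at 3.76 and 5.36 for wildtype against 4.90 and 4.27 for heterozygous samples, so the genotypes overlapped. In Cy5 it stood at 5.14 and 6.19 against 6.66 and 6.29, which did not overlap. On the log2 scale of that table the difference was 1.08 (SE 0.27) with marked spots left out and 0.41 (SE 0.407) with them kept.

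The mean level of 10 cortical excitatory neuron markers, relative to the wildtype mean, was 0.52 to 1.72 in heterozygous and -0.23 to 0.62 in wildtype samples, highest in heterozygous replicate 1. That of 15 striatal projection neuron markers was -1.09 to 0.03 in heterozygous and -0.10 to 0.13 in wildtype samples. It was lowest in the library labelled heterozygous replicate 3 (-1.09), then in heterozygous replicate 2 (-0.77). Of the cortical markers 4 were well above background in all samples. Their part in the Clptm1 difference was not tested. In bulk tissue, fewer cells of a type and less RNA per cell cannot be told apart.

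The genes whose pattern was most like that of Clptm1 were found by Pearson correlation over the 8 samples with marked spots kept and dye means removed, among 15824 named genes. They were Atf6b (r = 0.99), Galnt3 (0.988), Gsdmd (0.987), B230303A05Rik (0.982) and Zbtb48 (0.982), given as a description. Atf6b lay at -0.87 and -0.86 in wildtype replicates 1 and 2, at 0.27 and -0.09 in replicates 3 and 4, and at 0.10 to 0.55 in heterozygous samples. In each of these 5 genes, as in Clptm1, wildtype replicates 1 and 2, which share an array, were the lowest samples. Their range was narrower in Galnt3, from -0.11 to 0.07. Among the members Gphn had the most negative correlation with Clptm1 (-0.79), then Nlgn2 (-0.51), and the other 5 genes lay between -0.37 and 0.07. Ranked from the highest correlation down, Gphn stood at 15184 and Nlgn2 at 13010 of the 15824 genes, so many other genes were more negative. Nothing is read from these correlations.

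Gphn and Nlgn2, the scaffold and the adhesion molecule of inhibitory synapses, had slightly lower means in heterozygous samples, and neither passed the test. Gphn measured 11.78, 11.96, 11.50 and 11.98 in wildtype and 11.56, 11.66, 11.39 and 11.82 in heterozygous replicates 1 to 4. Its heterozygous values were lower than the wildtype values in Cy5, while in Cy3 the genotypes overlapped. The difference was -0.20 (SE 0.107, 95% interval -0.44 to 0.05, adjusted p = 0.623). Nlgn2 measured 14.38, 14.36, 14.31 and 14.21 in wildtype replicates, against 14.25, 14.19, 13.88 and 14.23 in heterozygous ones. The lowest value belonged to the library labelled heterozygous replicate 3, and the rest lay between 14.19 and 14.38. The difference was -0.18 (SE 0.117, 95% interval -0.45 to 0.10, adjusted p = 0.67), or -0.08 without that library. Both genes kept a negative sign in all 23 alternative settings, which ranged from -0.30 to -0.06 for Gphn and from -0.37 to -0.07 for Nlgn2. With the dye removed, neither gene had all heterozygous values below the wildtype values, which 5.48% of the tested probes had.

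The 3 Gabarap probes gave differences of either sign, each smaller than its spread between samples. The probe A_55_P2010223 measured 13.88, 13.63, 14.08 and 13.64 in wildtype replicates, against 13.67, 13.62, 13.83 and 13.72 in heterozygous ones. All samples lay close together, with wildtype replicate 3 the highest, and the difference was -0.09 (SE 0.108, 95% interval -0.35 to 0.16, adjusted p = 0.798). The probe A_51_P295312, upstream of the former in the same transcript, varied most of all members, with a residual SD of 0.51. It measured 12.09, 11.72, 12.77 and 11.91 in wildtype replicates, against 12.05, 12.57, 11.42 and 12.03 in heterozygous ones. Wildtype replicate 3 was its highest sample and the library labelled heterozygous replicate 3 its lowest. Wildtype replicate 3 was the highest sample of A_55_P2010223 too, and heterozygous replicate 3 was not its lowest. Its difference was -0.10 (SE 0.298, 95% interval -0.79 to 0.59), and it was -0.69 in Cy3 and 0.49 in Cy5 samples alone. Without the library labelled heterozygous replicate 3 it was 0.14 (SE 0.284). The third, A_55_P2000718, was dim, well above background in the 4 Cy5 samples alone, and ranged from 6.91 to 7.62 (difference 0.15, SE 0.164).

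Gabarapl1 and Gabarapl2, the other ATG8 members, did not differ beyond their spread. Gabarapl1 measured 16.77, 17.51, 16.42 and 17.32 in wildtype replicates, against 17.22, 17.11, 16.66 and 17.30 in heterozygous ones, with no saturated spot at intensities of 41277 to 301262. Its Cy5 values were the higher ones in wildtype, and the genotypes overlapped. The difference was 0.07 (SE 0.181, 95% interval -0.35 to 0.49, adjusted p = 0.922) and turned to -0.45 with the scanner's processed signals and -0.41 with the deposited value table. Gabarapl2 had the smallest difference of the 11 probes. It measured 13.77, 13.64, 13.75 and 13.64 in wildtype replicates, against 13.76, 13.66, 13.46 and 13.87 in heterozygous ones. The difference was -0.01 (SE 0.118, adjusted p = 0.981), with a 95% interval of -0.29 to 0.26. Without heterozygous replicate 3, Gabarapl1 differed by 0.12 (SE 0.219) and Gabarapl2 by 0.08 (SE 0.105).

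**Figure D2:**
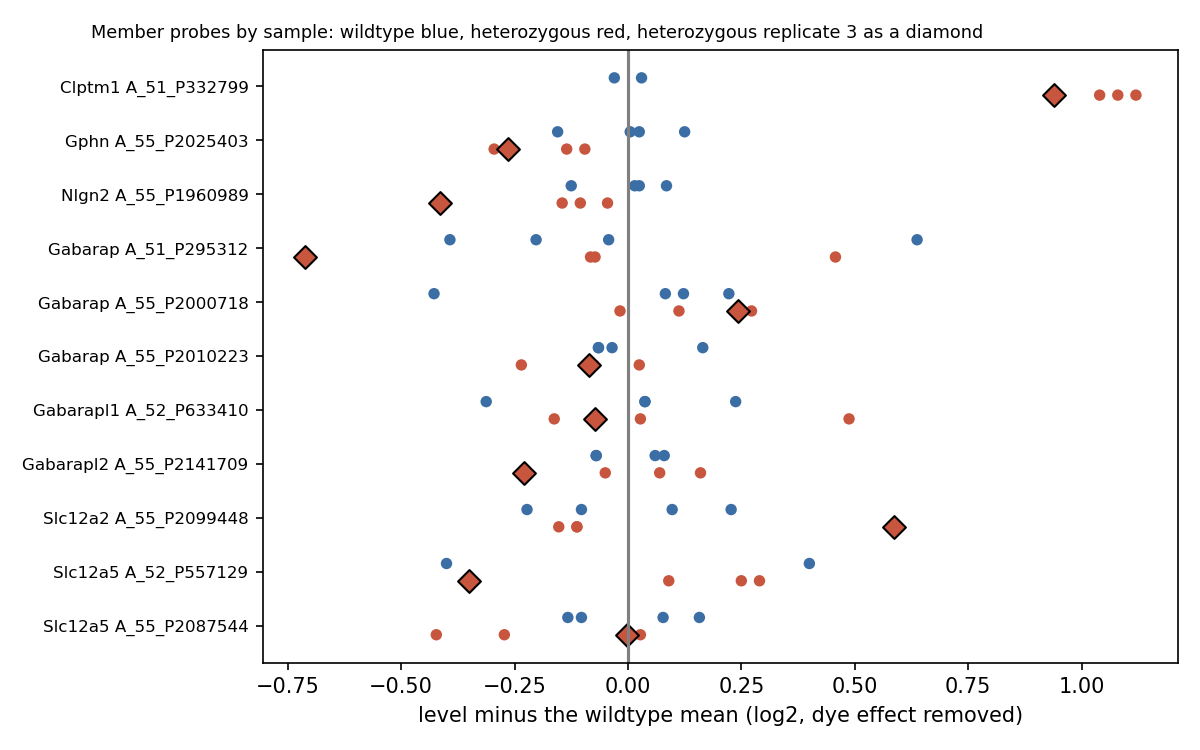
Level of each of the 11 probes minus its wildtype mean (horizontal axis, log2, dye effect removed) for wildtype samples in blue, heterozygous samples in red and heterozygous replicate 3 as a diamond; values of marked spots are left out. Clptm1 is the probe whose groups separate, over 2 wildtype values, and Slc12a2 has heterozygous replicate 3 alone to the right.

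Slc12a2, the chloride importer, was read by 1 probe (A_55_P2099448, from base 6460 of its transcript), and its heterozygous mean was set by 1 library. It measured 11.93, 11.99, 12.05 and 12.12 in wildtype replicates, against 12.01, 11.78, 12.74 and 11.77 in heterozygous ones. The library labelled heterozygous replicate 3 stood above the other 7, which lay between 11.77 and 12.12. The difference was 0.05 (SE 0.197, 95% interval -0.40 to 0.50, adjusted p = 0.95), and it was -0.17 (SE 0.116, adjusted p = 0.599) without that library. NKCC1 is also abundant in choroid plexus epithelium, so the choroid plexus and ependyma markers are given beside it. Their mean level relative to wildtype was 1.59 in that library, between -0.78 and 0.38 in the remaining heterozygous libraries and between -0.19 and 0.13 in wildtype ones, over 10 of 10 markers measured, 4 of them well above background in all samples. Ttr, the main secreted protein of choroid plexus, measured 16.29 there and 11.52 to 14.15 in the other 7 samples. Folr1 measured 12.32 there and 7.93 to 9.84 elsewhere, while Clic6 measured 11.47 against 10.04 to 11.19. Ccdc153, of the same list, was not highest there, at 10.01 against 7.31 to 10.73 elsewhere. The part of these cells in the Slc12a2 value was not tested.

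**Figure D3:**
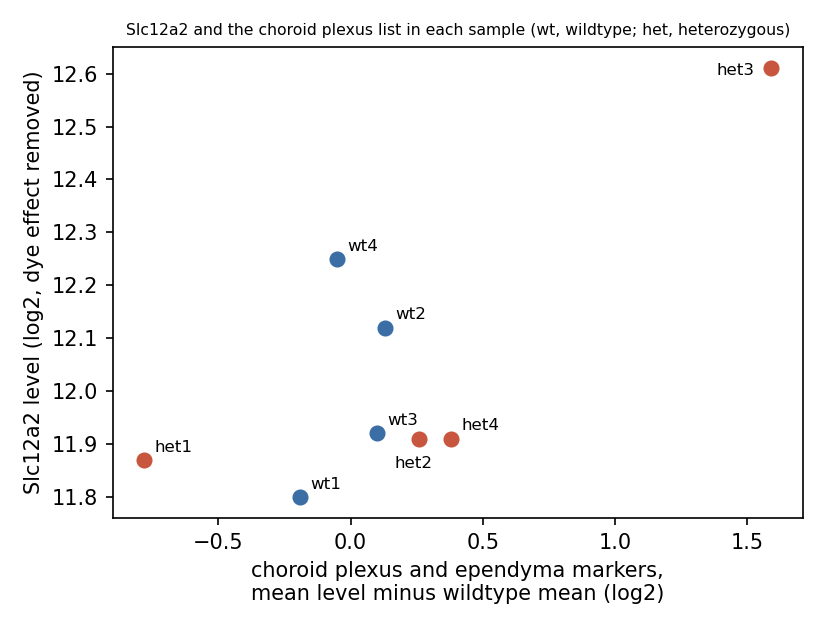
Slc12a2 level (vertical axis, log2, dye effect removed) against the mean level of choroid plexus and ependyma markers relative to the wildtype mean (horizontal axis, log2) in each sample, wildtype blue and heterozygous red. Heterozygous replicate 3 lies at 1.59 and 12.61, and the other 7 samples lie between 11.80 and 12.25 on the vertical axis.

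Slc12a5, the neuronal chloride exporter, had 2 probes that gave opposite signs, and neither passed. On the 3′ probe, A_52_P557129, the spots of wildtype replicates 2 and 3 were marked as outliers. Wildtype replicates 1 and 4 measured 15.11 and 14.27, and heterozygous replicates 1 to 4 measured 14.81, 14.92, 14.36 and 14.96. The wildtype values bracketed the heterozygous ones. The difference was 0.07 (SE 0.297, 95% interval -0.66 to 0.80, adjusted p = 0.955), and it was 0.19 with the marked spots kept, at 15.01 and 13.90. It was -0.53 in Cy3 and 0.67 in Cy5 samples alone, each with 1 wildtype value. The upstream probe, A_55_P2087544, measured 8.49, 8.22, 8.70 and 8.48 in wildtype replicates, against 8.35, 8.35, 8.62 and 7.90 in heterozygous ones. The lowest value was that of heterozygous replicate 4, and the groups overlapped (difference -0.17, SE 0.14, adjusted p = 0.722). Without heterozygous replicate 3 the differences were 0.25 (SE 0.257) for the 3′ probe and -0.25 (SE 0.15) for the upstream one.

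**Figure D4:**
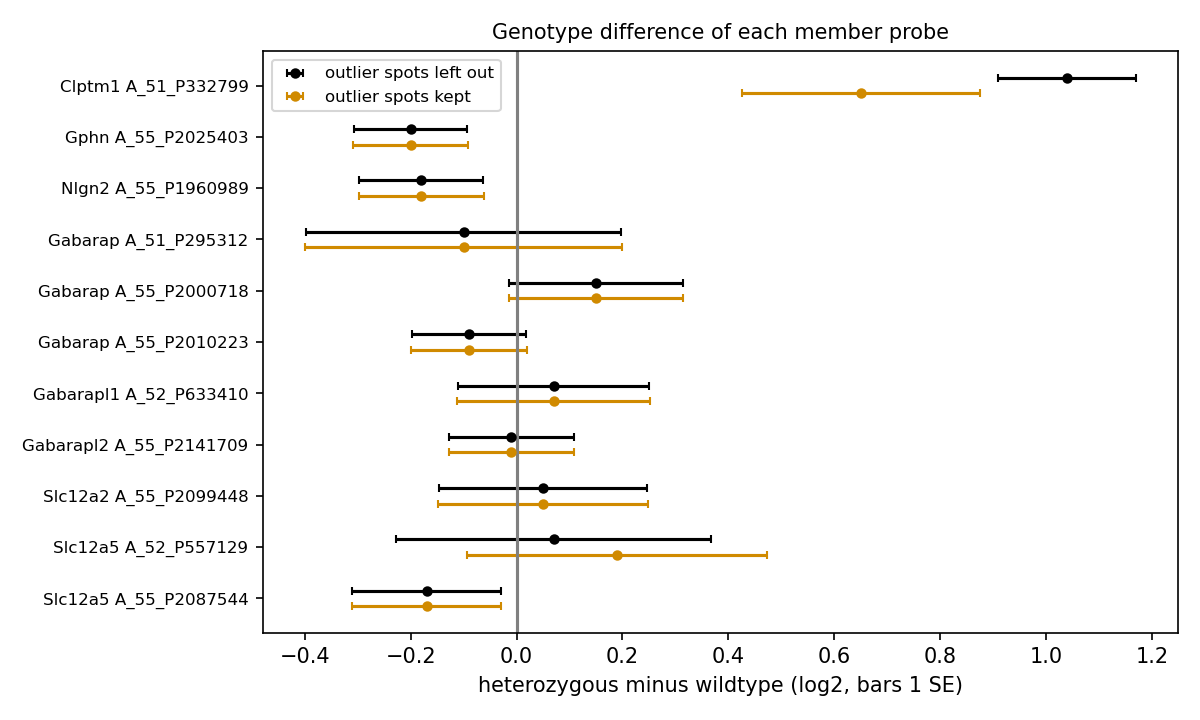
Heterozygous minus wildtype difference (horizontal axis, log2) of each member probe with bars of 1 SE, in black with marked spots left out and in orange with them kept. Clptm1 moves from 1.04 to 0.65 and Slc12a5 A_52_P557129 from 0.07 to 0.19, and the other 9 probes, which had no marked spot, stay in place.

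Genes that work beside the members were taken from lists set by function, each gene read by its brightest probe. A positive difference was found for 45.6% of all genes. Unadjusted p-values under 0.05 were found for 4% of all 19846 genes in the higher and 4.95% in the lower direction, and the median of all genes was -0.02. No gene of any list passed after adjustment over all probes, nor did any gene read this way (0%).

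Genes of GABA-A receptor folding, traffic and palmitoylation, the setting of Clptm1, had a median of 0.12, with 21 of 29 higher in heterozygous samples, and none had an unadjusted p under 0.05. The median was -0.01 with the scanner's processed signals and -0.03 with the deposited value table. Clptm1l, the paralog of Clptm1, differed by -0.27 (SE 0.298, adjusted p = 0.794), and by 0.10 without the library labelled heterozygous replicate 3; replicate 4 had no value. Lhfpl4, the receptor-associated subunit that links GABA-A receptors to neuroligin 2, differed by 0.11 (SE 0.141). The smallest p-values belonged to Arfgef2, an exchange factor for vesicle traffic, at 0.41 (SE 0.177) and the palmitoyltransferase Zdhhc3 at 0.30 (SE 0.172). They belonged to the chaperone Canx at -0.31 (SE 0.138, 3 heterozygous values) and to Plcl2, an inositol phosphate binding protein, at -0.21 (SE 0.149) among lower genes. A second Zdhhc3 probe gave -0.26 (SE 0.197) and a second Arfgef2 probe 0.46 (SE 0.103). The count of genes with an unadjusted p under 0.05 covers the brightest probe of each gene alone. Without the doubted library Arfgef2 differed by 0.59, Zdhhc3 by 0.48 and Plcl2 by -0.08. Without the doubted library 3 genes (10.3%) had an unadjusted p under 0.05, all higher, against 4.98% of all genes, and the median was 0.11.

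Inhibitory synapse organisers had a median of -0.02, with 14 of 36 higher and 22 lower, of which 3 lower genes had an unadjusted p under 0.05. The neuroligin genes Nlgn1 and Nlgn3 differed by -0.21 (SE 0.184) and 0.10 (SE 0.179), and the adhesion gene Slitrk3 by 0.06 (SE 0.127). Nlgn3 differed by 0.02 and Slitrk3 by 0.17 without the doubted library. The kinase gene Gsk3b, whose product phosphorylates gephyrin, differed by -0.65 (SE 0.241, adjusted p = 0.516). Its other probes gave -0.05 and -0.47, and it differed by -0.92 without the doubted library. Sntb1, of the dystrophin complex, differed by -0.33 (SE 0.124). Mocs2, which like gephyrin serves molybdenum cofactor synthesis, differed by 0.26 (SE 0.115) and by -0.03 on a second probe, and Ptprd, a presynaptic adhesion phosphatase, by 0.42 (SE 0.236), or 0.69 without the doubted library. Without the doubted library 2 were higher (5.56%) and 1 lower (2.78%) at an unadjusted p under 0.05, against 4.98% and 6.3% of all genes.

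Chloride transporters, channels and their kinases had a median of 0.08 over 34 measured of 41 genes, with 19 higher and 15 lower, and 3 in each direction had an unadjusted p under 0.05. Of the kinases that set NKCC1 and KCC2 activity, Wnk1 differed by 0.06 (SE 0.14, 3 heterozygous values), Stk39 by 0.11 (SE 0.116) and Oxsr1 by 0.21 (SE 0.262). Wnk1 differed by 0.15 and Stk39 by 0.04 when that library was left out. Slc4a8, a sodium-dependent chloride and bicarbonate exchanger, differed by 0.59 (SE 0.129, adjusted p = 0.39) and the chloride channel gene Clcn2 by 0.48 (SE 0.155). A second Clcn2 probe gave 0.33. Ano2, a calcium-activated chloride channel gene, differed by -1.03 (SE 0.295, adjusted p = 0.458) and Clcn6 by -0.33 (SE 0.11), or by -0.06 on its second probe. Without the doubted library the counts were 3 higher (8.82%) and 5 lower (14.7%), against 4.98% and 6.3% of all genes, and the median was 0.07.

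Genes of ATG8 conjugation and autophagy had a median of -0.01 over 33 measured of 35, with 15 higher and 18 lower and none at an unadjusted p under 0.05. The LC3 genes Map1lc3a and Map1lc3b, of the same protein family as Gabarap, differed by 0.20 (SE 0.154) and 0.24 (SE 0.122). Wipi2 differed by 0.30 (SE 0.153), the conjugation gene Atg10 by -0.27 (SE 0.125) and the receptor gene Calcoco1 by -0.14 (SE 0.105). Map1lc3a differed by 0.09 and Calcoco1 by -0.08 without the doubted library. Without the doubted library 6 genes were higher (18.2%) and 1 lower (3.03%) at an unadjusted p under 0.05, against 4.98% and 6.3% of all genes. The list median was then 0.07. GABA-A and glycine receptor subunits, the cargo of this machinery, had a median of -0.12, with 13 of 19 measured lower and 2 of these at an unadjusted p under 0.05. They were Gabra4 at -0.57 (SE 0.162) and Gabrr2 at -0.38 (SE 0.147), while Gabra3 differed by 0.50 (SE 0.291; 0.25 without the doubted library). Without the doubted library the median was 0.03, with 11 higher and 8 lower.

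**Figure D5:**
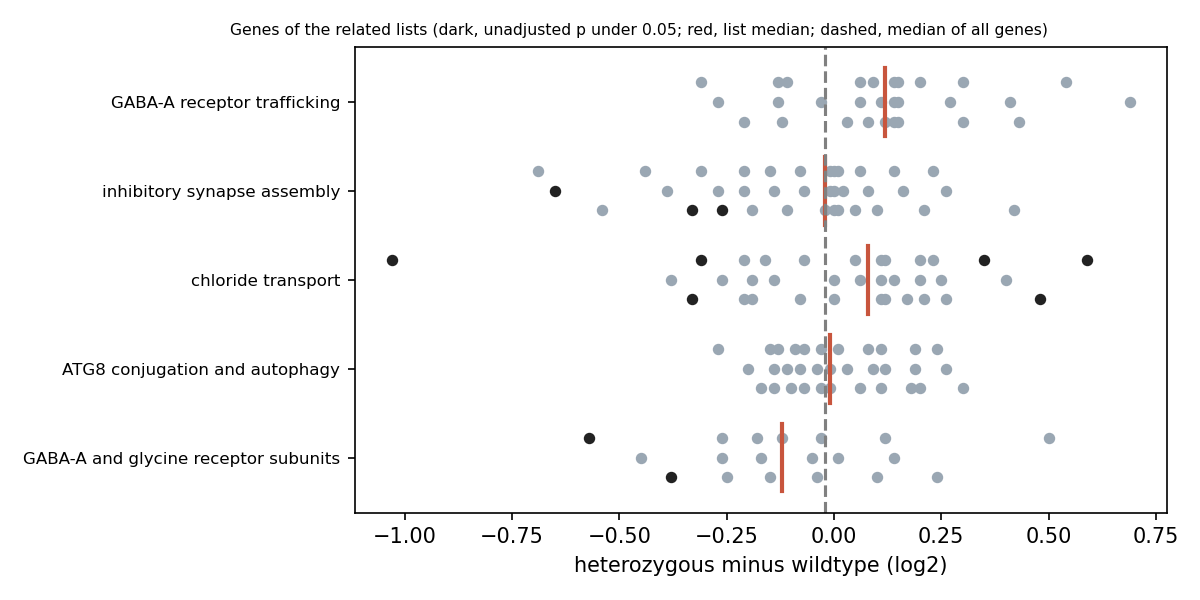
Heterozygous minus wildtype difference (horizontal axis, log2) of every measured gene in 5 related lists, dark where the unadjusted p was under 0.05, with the list median in red and the median of all genes (-0.02) dashed. The list medians lie between -0.12 and 0.12.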

How the data were processed

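Scanner files came from Agilent Feature Extraction 10.7.3.1 and array design 026655, with spot brightness as intensity, per the file headers. The 2 samples of an array had identical files, each read from its own channel. The deposited value table holds a linear ratio of background-subtracted median intensity to the column median, as the values show; every column median was 1, genes were not centred, and it served as an alternative. Outlier and well-above-background marks are the scanner software's, per the file headers.

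Here, normexp (offset 50) was applied to mean intensity and background median, then loess and Aquantile with limma 3.58.1 in R 4.3.3, giving a log2 value per channel where the authors deposited linear ones. Control spots (1377) and outlier spots were dropped. Of the probes well above background in at least 4 of 8 samples (25338), 25324 could be fitted. lmFit and eBayes used genotype, dye and the array as a random block (consensus correlation -0.0117, statmod 1.5.0), with Benjamini-Hochberg adjustment over all probes. RefSeq's GRCm38.p6 table named 27234 probes by accession and 3576 by symbol, and 8619 kept the file's name. Each array held 1 genotype, and all arrays shared 1 slide and 1 scan.

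The members and lists were chosen with earlier results of these data known. Named genes were every member probe, Brd2, 11 set pathway genes, the 2 smallest p-values in each direction of each list and the 5 genes most like Clptm1. Some of the genes so picked are not reported here. The genes Btbd9, Ttr, Folr1, Clic6 and Ccdc153 were singled out with values in view. Alternatives changed the background, normalization, value table, outlier spots, filter, probe choice, blocks, dye, variance model and threshold, or left out a sample; those joining kept outlier spots with another choice were chosen after seeing the data. The fit was also run on simulated data with independent noise in each sample and no array effect, so that run says nothing on array effects. Figures were drawn with matplotlib 3.10.9.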

Additional observations from a re-analysis of the deposited data

Results flagged for a closer look

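Among 76 groups of 4 values of the named probes, 2 held a sample far from the other 3, and chance marks about 5% of such groups. Slc12a2 in heterozygous replicate 3, at 12.61 with the dye removed, stood above 11.87 to 11.91 in the other heterozygous samples. The Gabarap probe A_55_P2010223 in wildtype replicate 3, at 13.97, stood above 13.74 to 13.77 in the other wildtype samples. The cause was not tested for either.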

How the results depend on the processing

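The Clptm1 difference of 1.04 lay between 1.00 and 1.09 without each sample in turn, with marked spots left out. Wildtype replicates 3 and 4 had no Clptm1 value there, so leaving them out removed nothing. Leaving out wildtype replicate 1 or 2 left 1 wildtype value. That range therefore says nothing on the wildtype array with the marked spot. The difference was 1.10 with a replicate block, 0.89 with the scanner's processed signals and 1.36 with loess alone. With marked spots kept it was 0.65, and then 0.25 without the array of wildtype replicates 1 and 2, 0.53 with processed signals, 0.41 with the value table, 0.54 in Cy3 alone and 0.75 in Cy5 alone. The 1 probe past the threshold became 0 with the value table, loess alone, no filter, 1 probe per gene, the replicate block or Cy3 alone (177 to 3147 at an unadjusted p under 0.05), 2 at an adjusted p of 0.1, and 0 to 1 without each sample (1 without heterozygous replicate 3, 0 without any of the others). In Cy5 alone 1 other probe passed. Same-numbered samples shared a number and a dye. With dye and genotype means removed they correlated at 0.17, -0.30, -0.19 and -0.26, and 0 of 4 matched best with their own number. This does not show that they shared nothing else. The replicate block ended no member's call, since none passed. Brd2 measured -0.78 (exact permutation p = 0.0571) with processed signals and -1.03 to -0.75 without each sample; without wildtype replicate 1, 2 or 4 or heterozygous replicate 1 its exact permutation p was 0.0571.

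Gphn, Nlgn2 and the Slc12a5 probe A_55_P2087544 kept their sign in every setting that measured them. The Gabarap probe A_51_P295312 turned to 0.02 with loess alone and 0.49 in Cy5 alone (-0.34 to 0.15 without each sample). A_55_P2000718 turned to -0.06 in Cy5 alone (-0.02 to 0.25 without each sample) and A_55_P2010223 to 0.04. Gabarapl1 turned to -0.45 with processed signals, -0.41 with the value table, -0.08 with quantile scaling, -0.16 with loess alone and -0.21 in Cy5 alone (-0.09 to 0.16 without each sample). Gabarapl2 turned to 0.04 with loess alone and 0.13 in Cy5 alone (-0.12 to 0.08). Slc12a2 turned to -0.03 with the value table and -0.28 in Cy5 alone (-0.17 to 0.21). Slc12a5 A_52_P557129 turned to -0.10 with processed signals, -0.09 with the value table and -0.53 in Cy3 alone (-0.53 to 0.67). The cause was not tested. Loess alone moved the median of all genes to 0.09. Over the 23 alternative settings the list medians ranged from -0.03 to 0.17 for receptor traffic and -0.14 to 0.10 for synapse organisers. They ranged from -0.02 to 0.19 for chloride transport, -0.12 to 0.14 for autophagy and -0.23 to 0.05 for receptor subunits. The number of arrays limits every difference, and 4 arrays of 1 genotype each give 2 arrays a group.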

Other observations

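As in Clptm1, 2 wildtype values were left out for outlier marks in 246 of 25338 probes (0.971%), and 94.1% of probes had no value left out. Among genes next to Clptm1 in the RefSeq table, Relb differed by 0.11 (SE 0.124), Clasrp by 0.22 (SE 0.166), Zfp296 by 0.34 (SE 0.218) and Apoc2 by -0.10 (SE 0.139). These genes were named after their values were seen, and their differences from Clptm1 were not tested.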
